A study of Mus musculus with 8 samples.

Results

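The Cblb locus was followed by ATAC-seq in mouse regulatory T (Treg) cells. A site is an interval of the deposited count table, and the members are the 81 sites, of 79758 in all, whose midpoint lies in chr16:51980000-52210000 of the mouse build mm9, a window given as that of the Cblb gene. The sites were selected on position alone, but the window itself was chosen by its measured counts in these 8 libraries, and which comparison drew attention to it is not recorded. Values and calls in the window are therefore descriptions and no independent support for any pattern.

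ATAC-seq uses a transposase that cuts open chromatin, so the count at a site reads its accessibility. Treg cells were sorted from the spleen and lymph nodes of mixed bone marrow chimeras, hosts rebuilt with marrow of more than one donor. The 4 groups were WT cTreg, WT eTreg, Pggt1b-deficient cTreg and Pggt1b-deficient eTreg cells, with 2 libraries each, where eTreg stands for effector Treg and cTreg, by the usage of the field, for central Treg. The Pggt1b-deficient groups carry KO in their titles. The sources used here do not give the allele, the Cre driver, the age of the animals or the number of donors. They also do not say whether a group's 2 libraries are from different chimeras, so p-values cover only how far these libraries differ, and that spread may be technical.

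Cbl-b, the protein made from Cblb, is an E3 ubiquitin ligase that restrains signalling below the T cell receptor and CD28. T cells that lack it respond to antigen without costimulation, and it is one of the ligases linked to T cell anergy. Central Treg cells are the resting, recirculating pool, and effector Treg cells are its antigen-experienced progeny. The product of Pggt1b is the catalytic subunit of protein geranylgeranyl transferase I, the enzyme that puts an isoprenoid lipid on small GTPases such as RhoA and Rac1.

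The promoter of Cblb is shown because it is the element to which open sites of the locus are usually related. The 250 bases before the start of the transcript, from RefSeq on build GRCm38.p6, are chr16:52031299-52031548 on the plus strand. GRCm38.p6 is another build than that of the sites, so these coordinates must not be set against those of the sites, and which site covers the promoter was not analysed here. Capitals mark 2 CCAAT boxes, the motif of NF-Y, read here on the other strand, and 2 GC boxes of SP and KLF factors.
Cblb promoter: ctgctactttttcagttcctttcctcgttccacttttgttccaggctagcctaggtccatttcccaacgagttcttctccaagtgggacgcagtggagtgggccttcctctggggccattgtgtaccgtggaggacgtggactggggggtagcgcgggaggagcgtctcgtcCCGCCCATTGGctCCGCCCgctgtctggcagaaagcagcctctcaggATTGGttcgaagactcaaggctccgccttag

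The sequence is 58.8% G and C and holds 14 CG dinucleotides, against medians of 52.4% and 6 over 32841 promoter windows of the same length, of which 70.6% had fewer CG. CCAAT was searched on both strands and occurs in 33.9% of those windows, and GGGCGG in 32.7%. The first GC box and the first CCAAT box abut without overlap. The letters searched for ETS (CCGGAAG), AP-1 (TGANTCA), FOXO (TGTTTAC), TCF1 and LEF1 (CTTTGAT), CREB (TGACGTCA) and the MYC E-box (CACGTG) were not in the window. They occur in 6.91%, 6.75%, 3.17%, 3.21%, 1.55% and 6.02% of promoter windows. The motifs were picked after the sequence was seen, and a match is a run of letters and not a bound site.

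The 4 groups differed widely in depth. Library totals ran from 7153991 to 14974253 counts in 6 libraries and were 2255214 and 1664702 in the Pggt1b-deficient eTreg libraries. The window held 9913 to 18131 counts per library in the 6 and 2625 and 1890 in the 2. The median count at a member was 26 to 64 and 7 and 6, respectively. Of the 81 members, 13 and 14 had no count in one and the other Pggt1b-deficient eTreg library, against 0 to 2 elsewhere. The 2 libraries of a group differed by a median absolute log2 ratio, at 0.5 CPM added, of 0.53 over the tested members in Pggt1b-deficient eTreg and of 0.17 to 0.22 in the other groups. Small differences at weak sites are thus not resolvable in Pggt1b-deficient eTreg cells. Defining markers of Treg cells and the Pggt1b gene itself were not checked, as no gene table of the build of the sites was used here.

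Member widths ran from 15 to 1319 bp around a median of 106 bp, and together the members covered 15455 of 230000 bp. Splitting them wherever more than 10 kb separated neighbours, a choice made after the positions were seen, gave 7 runs. The third run, chr16:52031115-52096185, held the most sites, 61 in 65.1 kb. It starts with the widest and strongest site, chr16:52031115-52032434, from which distances are counted below, positive towards higher coordinates. The fifth run, chr16:52127676-52155635, held 11 sites in 28.0 kb, and the other 5 runs held 1 or 2 sites each. In RefSeq's order of genes, Cblb lies between Ccdc54 and Alcam, with 1 small nucleolar RNA gene, Gm23513, inside it.

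**Figure D1:**
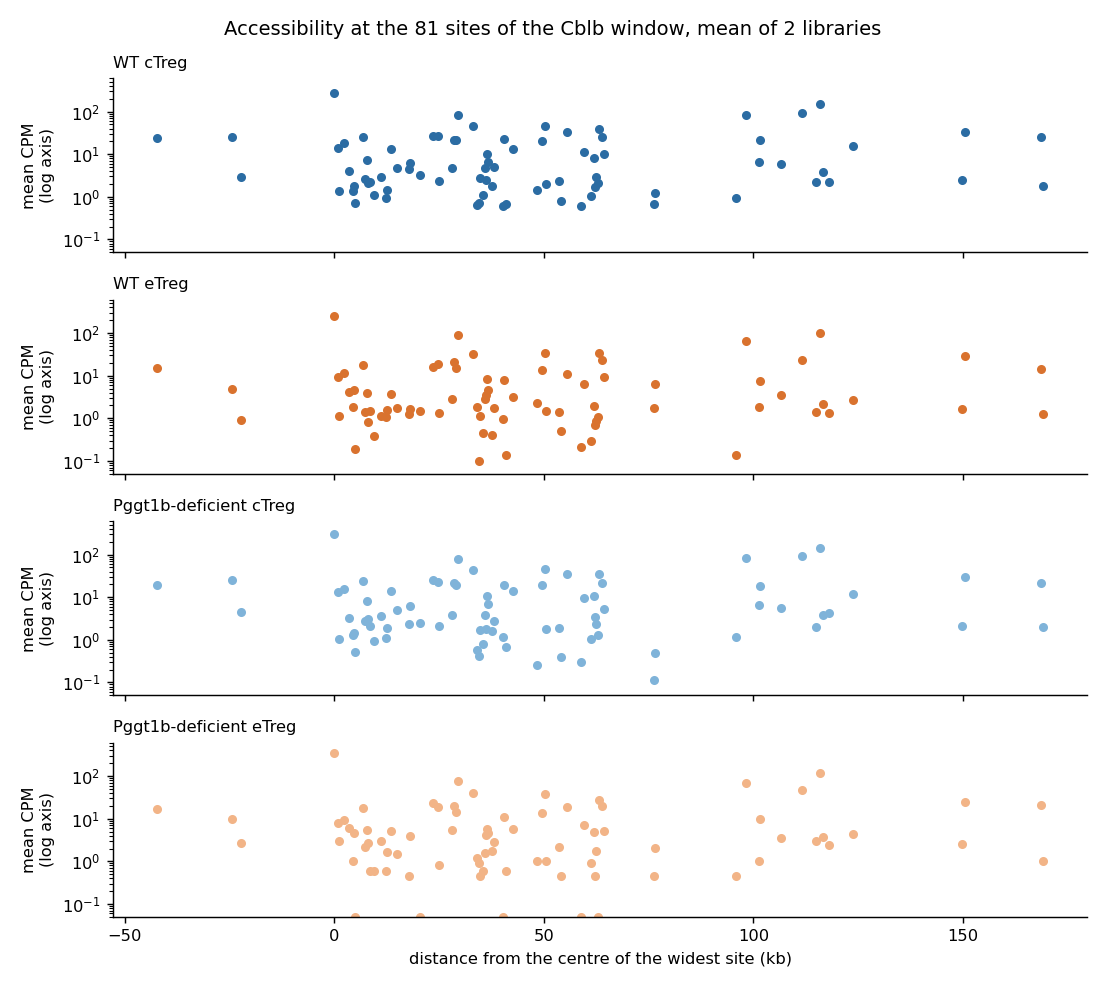
Mean CPM of 2 libraries (log axis) at each of the 81 sites against distance in kb from the centre of the widest site, 1 panel per group. Points at the lower edge had no count in either library. The run with the most sites begins at the widest site, which is the highest point in every group.

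Levels below are in CPM, each count scaled to its library's total after TMM adjustment. Summed over all 81 sites, accessibility was highest in cTreg cells of both genotypes. In such bulk libraries, fewer cells with an open site and less opening per cell cannot be told apart. WT cTreg libraries had 1376 and 1436 CPM, Pggt1b-deficient cTreg libraries 1382 and 1368 CPM, Pggt1b-deficient eTreg libraries 1177 and 1120 CPM, and WT eTreg libraries 975 and 986 CPM. The cTreg genotypes overlapped, and each eTreg group lay apart from the cTreg groups and from the other eTreg group. As means these were 1406 ± 42.1, 1375 ± 10.1, 1149 ± 40.5 and 980.5 ± 7.55 CPM (SD, n = 2). With 2 libraries on each side the smallest p of an exact permutation test is 0.33, and no test is given for sums.

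The WT difference was -0.52 on the log2 scale, a 1.43-fold lower level in eTreg cells, and the Pggt1b-deficient difference was -0.26, 1.20-fold lower. In CPM, the gap between Pggt1b-deficient subsets was 53.2% of the WT gap. Without the widest site it was 66.9%, and between runs it varied from 14.8% in the seventh to 109% in the sixth. Among 3139 windows of the same length with at least 10 sites elsewhere, the median WT difference was 0.06, and 4.81% of windows lay below the Cblb window. For the Pggt1b-deficient difference 16.7% lay below it. Pggt1b-deficient minus WT was 0.23 in eTreg cells, with 89.1% of windows below, and -0.03 in cTreg cells, with 39.1% below. Without the widest site the eTreg difference was 0.13, for which no rank among windows was taken.

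**Figure D2:**
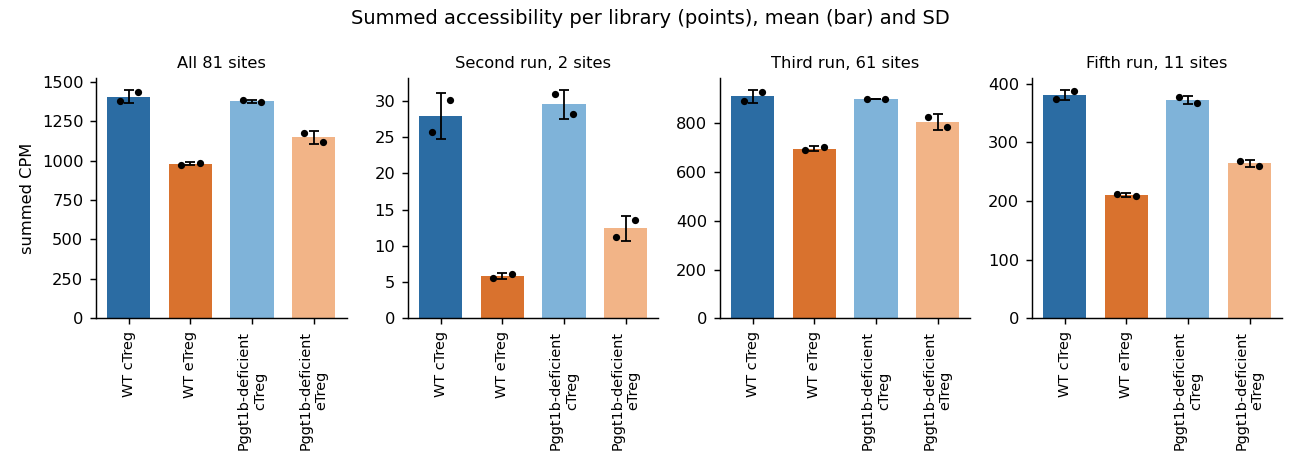
Summed CPM per library (points) with mean (bars) and SD of 2 libraries for all 81 sites and for the second, the third and the fifth run. In each panel WT eTreg is lowest, Pggt1b-deficient eTreg is next, and the cTreg groups are highest.

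The first comparison asked how the locus differs between eTreg and cTreg cells of the WT. Of the 76 members that passed the filter on low counts, 35 were lower in WT eTreg cells and 2 were higher (edgeR quasi-likelihood test, adjusted p under 0.05 over 75352 sites). Over all tested sites, 14.9% were lower and 13.8% higher, 28.7% in all. The median log2 fold change of the members was -0.74, against 0.00 over all sites, and 64 of 76 lay below 0. The 35 lower members fell by 0.31 to 2.57 on the log2 scale, 20 of them more than 2-fold. Lower members occurred at every level of strength. By mean CPM over the libraries, 10 of the 16 members at 20 CPM or more were lower, as were 14 of 17 at 5 to 20 CPM and 11 of 43 under 5 CPM, where 16%, 20% and 12% of sites of the same level were lower in the series. Across the 76 members, which share libraries, Spearman's rho between mean CPM and the fold change was 0.04. The 5 members left untested were at most 51 bp wide, with mean counts of at most 5.25.

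Among strong members the change was uneven. The widest site had 265 and 288 CPM in WT cTreg and 248 and 245 CPM in WT eTreg libraries, so the groups did not overlap but lay close. Its log2 fold change was -0.16 ± 0.07 (SE) with an edgeR adjusted p of 0.0641, and -0.27 with an adjusted p of 0.000227 when loess offsets replaced TMM. The third in strength, chr16:52061006-52061805 at 29.6 kb, had 79.9 and 82.9 CPM in WT cTreg and 82.1 and 96.9 CPM in WT eTreg libraries, which overlapped. The second strongest, chr16:52147247-52148022 at 116 kb, fell from 146 and 152 CPM to 99.5 and 101 CPM, by 0.57 ± 0.08 (adjusted p = 3.66e-07 by edgeR).

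A 740 bp site shortly before that one, chr16:52142902-52143642 at 111 kb, fell far more. It had 91.5 and 90.4 CPM in WT cTreg and 23.4 and 22.9 CPM in WT eTreg libraries, a log2 change of -1.97 ± 0.11 and 3.93-fold lower (adjusted p = 2.72e-17 by edgeR). The SD between replicates was 0.74 CPM in WT cTreg and 0.29 CPM in WT eTreg cells. A similar site of 781 bp, chr16:52086910-52087691 at 55.5 kb, fell from 31.4 and 34.1 CPM to 11.8 and 10.2 CPM, by 1.59 ± 0.15 (adjusted p = 6.95e-11 by edgeR).

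The largest falls named by rule were at weaker sites. The site chr16:52155301-52155635 at 124 kb, the last of the fifth run, had 13.5 and 18.3 CPM in WT cTreg and 2.69 and 2.65 CPM in WT eTreg libraries, 5.95-fold lower. The site chr16:52007212-52007428, 24.5 kb before the widest site, had 23.0 and 27.0 CPM against 4.73 and 5.16 CPM, 5.03-fold lower. In the third run, chr16:52093571-52093741 at 61.9 kb fell from 7.17 and 9.42 CPM to 1.76 and 2.04 CPM, and chr16:52074405-52074578 at 42.7 kb from 14.5 and 12.2 CPM to 3.89 and 2.44 CPM. At all 4 sites both WT eTreg libraries lay more than 2-fold below either WT cTreg library, with edgeR adjusted p of at most 1.45e-06.

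Both eTreg-higher members were weak and narrow. The site chr16:52108194-52108219 at 76.4 kb, 25 bp wide, had 1.69 and 0.792 CPM in WT cTreg and 5.84 and 6.79 CPM in WT eTreg libraries, a log2 change of 2.34 ± 0.42 (adjusted p = 3.22e-05 by edgeR). It lies with 1 other weak site in a run of its own, in a stretch between the third and the fifth run. The site chr16:52036557-52036657 at 4.83 kb had 2.01 and 1.58 CPM against 3.99 and 5.09 CPM, a log2 change of 1.34 ± 0.41 (adjusted p = 0.0125 by edgeR). That call was lost with DESeq2 and without either WT cTreg library or WT eTreg replicate 2, with adjusted p over its alternatives from 0.00167 to 0.164.

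Without WT cTreg replicate 2 the median log2 fold change of the members in this comparison was -0.73. Without WT eTreg replicate 2 it was -0.72. With all libraries thinned to the smallest total 15 members were called, all lower, and 14.6% of all sites. With only the libraries compared 47 members were called, 43 of them lower, and 36.7% of all sites.

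**Figure D3:**
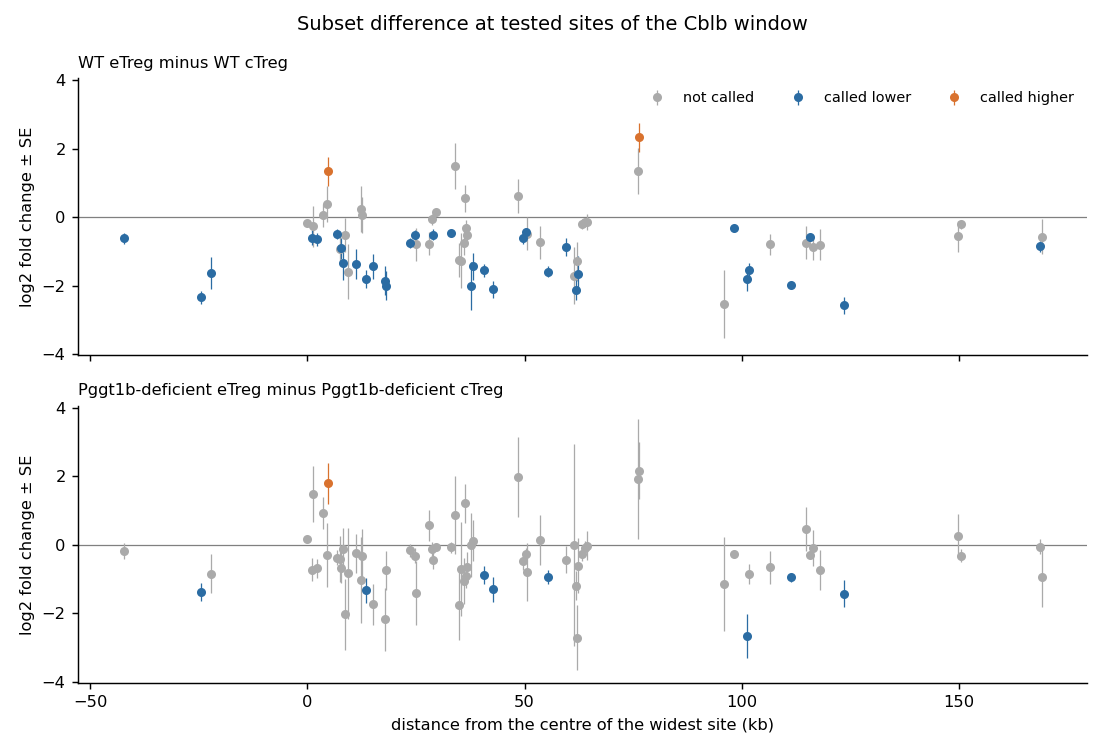
Log2 fold change (± SE) of eTreg minus cTreg at tested sites against distance in kb from the widest site, WT above and Pggt1b-deficient below, coloured by the edgeR call. The 3 tested sites with no count in Pggt1b-deficient eTreg libraries are left out. Most points lie below 0 in both panels, and the error bars are longer in the lower panel.

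Few sites lay in the flanks. The window of the same length before it held 4 sites, of which 3 were lower and 1 higher in WT eTreg cells, and the one after it held 7, of which 4 were higher and 0 lower (edgeR). The site chr16:52418642-52418858 in the latter, chosen after its values were seen, had 1.77 and 1.27 CPM in WT cTreg and 18.4 and 16.4 CPM in WT eTreg libraries. Summed over the 7 sites, the level was 16.4 ± 0.43 CPM in WT cTreg and 43.3 ± 0.60 CPM in WT eTreg cells (SD, n = 2), the opposite direction to the Cblb window.

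The second comparison asked whether the subsets differ likewise without Pggt1b. It shares no library with the WT comparison. In Pggt1b-deficient cells the eTreg libraries had 9 members lower and 1 higher by edgeR at an adjusted p under 0.05, where 4.52% of all sites were lower and 4.59% higher, 9.12% in all. Without Pggt1b-deficient cTreg replicate 1 the median log2 fold change of the members was -0.44. All 9 lower members were among the 35 WT eTreg-lower members. The median log2 fold change of all tested members was -0.44, or -0.39 with 3 sites without counts set at their bound, against -0.06 over all sites. The 35 had a median log2 fold change of -0.66 here, and 33 of them lay below 0. At 25 of the 35 both Pggt1b-deficient eTreg libraries lay below both Pggt1b-deficient cTreg libraries. For the 11202 WT eTreg-lower sites of the series, the median was -0.63, 85.8% lay below 0, and 61% had libraries apart in this way. Of the 35, 25.7% were called lower here, against 19.2% of the 11202, so the share in the window lay near that of the series.

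The sites with the clearest subset difference in Pggt1b-deficient cells were again those at 111 kb and 24.5 kb before the widest site. At 111 kb the Pggt1b-deficient cTreg libraries had 96.8 and 86.1 CPM and the eTreg libraries 41.7 and 54.5 CPM, a log2 change of -0.95 ± 0.13 (adjusted p = 4.64e-06 by edgeR). At the site before the widest they had 26.0 and 23.9 CPM against 9.87 and 9.48 CPM, a change of -1.36 ± 0.26 (adjusted p = 0.000477 by edgeR). The 781 bp site at 55.5 kb went from 37.0 and 33.7 CPM to 18.4 and 19.0 CPM, by -0.92 ± 0.20 (adjusted p = 0.00222 by edgeR). All 3 sites were picked among those called in this comparison, so libraries that lie apart add no support. At none of the 3 sites did the libraries of the subsets overlap, and these 3 calls held under every alternative run, with adjusted p of at most 0.035.

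Among weaker sites, chr16:52132950-52133143 at 101 kb had 5.83 and 7.31 CPM in the cTreg libraries without Pggt1b and 0.897 and 1.19 CPM, 2 counts each, in the eTreg libraries. The site at 124 kb had 11.1 and 12.3 CPM against 3.59 and 5.33 CPM, and that at 42.7 kb had 14.1 and 13.5 CPM against 4.48 and 7.11 CPM. These libraries did not overlap either. The site chr16:52045180-52045437 at 13.5 kb had 15 and 12.7 CPM against 8.07 and 2.37 CPM. These 4 calls were lost under 3 to 5 alternatives each, among them limma-voom with group weights. Without Pggt1b-deficient eTreg replicate 1 the calls at 124, 101 and 42.7 kb were lost, with adjusted p over their alternatives of up to 0.168, 0.111 and 0.202. The call at 13.5 kb was lost without Pggt1b-deficient eTreg replicate 2, with adjusted p of up to 0.178, and those at 42.7 and 13.5 kb were also lost without Pggt1b-deficient cTreg replicate 1.

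The 1 higher member, at 4.83 kb, rested on 1 library. It had 8.07 CPM in Pggt1b-deficient eTreg replicate 1 and 1.19 CPM in replicate 2, against 1.46 and 1.38 CPM in the cTreg libraries. Its log2 fold change was 1.80 ± 0.59 (adjusted p = 0.0486 by edgeR), and -0.27 without Pggt1b-deficient eTreg replicate 1. The call was lost under 11 of 14 alternatives, with adjusted p by edgeR, DESeq2 or limma from 0.00249 to 0.912. The ninth lower member, chr16:52052057-52052198, is outside the rule and is named because it had no count in either Pggt1b-deficient eTreg library. Against a floor of 6 counts over that group, 1.53 CPM, it was at least 1.58-fold lower than in Pggt1b-deficient cTreg cells. The remaining lower member, chr16:52072301-52072446 at 40.6 kb, also outside the rule, had 20.9 and 18.2 CPM against 9.87 and 11.9 CPM.

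**Figure D4:**
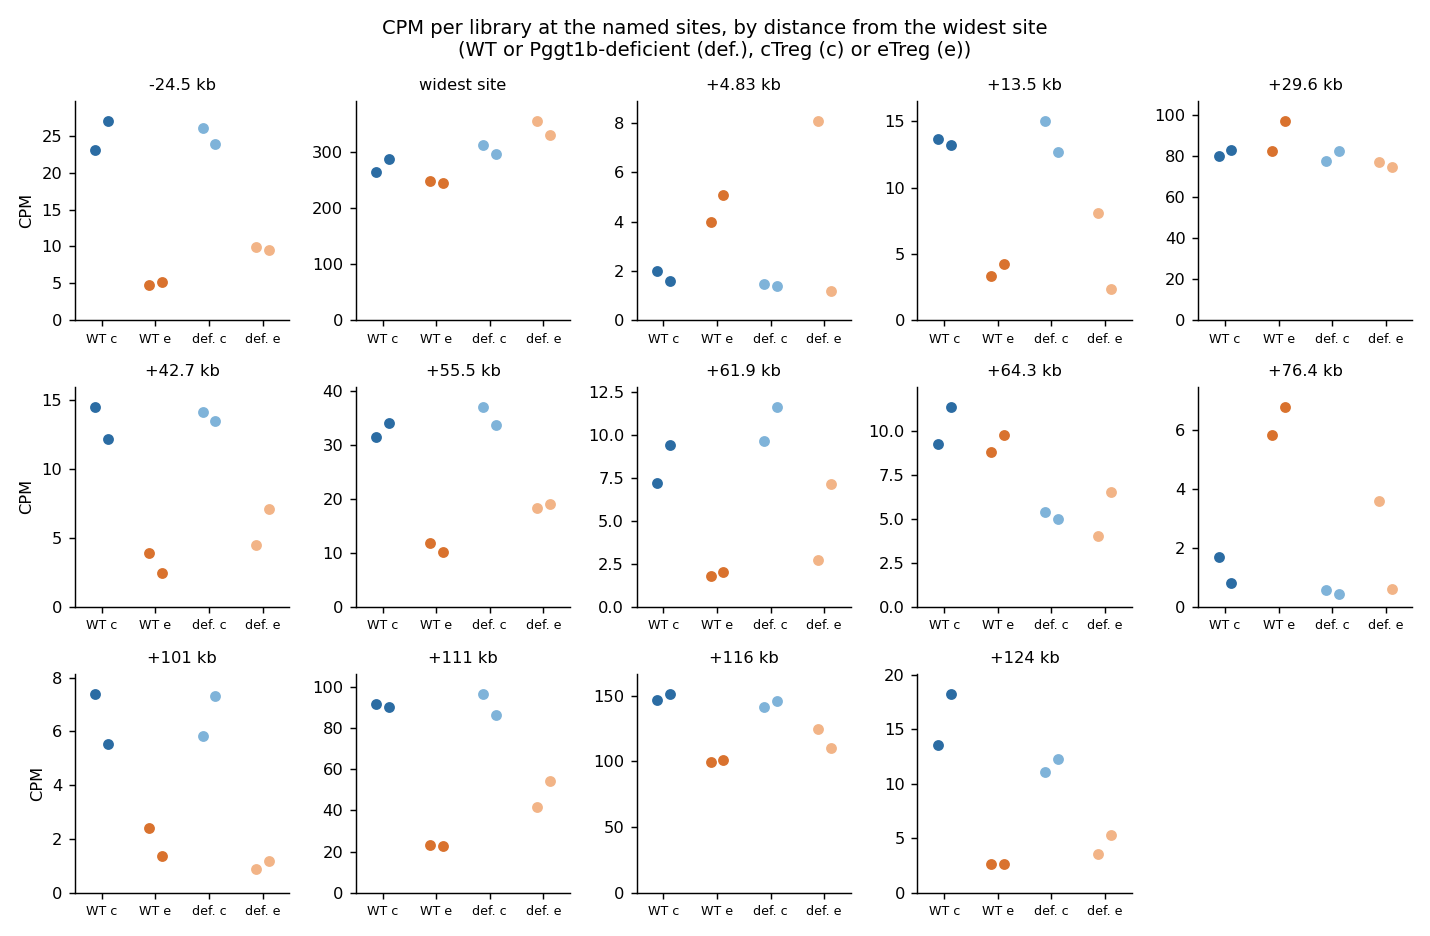
CPM per library (2 points per group) at the 14 sites named by rule, in order of distance in kb from the widest site, each panel on its own axis from 0. WT eTreg points are lowest at -24.5, +55.5, +111 and +124 kb with Pggt1b-deficient eTreg points between them and the cTreg points, whereas the widest site is highest in Pggt1b-deficient eTreg.

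Next, eTreg cells with and without Pggt1b were compared. It shares the WT eTreg libraries with the first comparison, so its values are set beside those and not counted as agreement or opposition. Here 4 members were higher in Pggt1b-deficient eTreg cells and 1 was lower (edgeR, adjusted p under 0.05), where 4.66% of all sites were higher and 6.43% lower, 11.1% in all. The median log2 fold change of the members was 0.15, or 0.19 with 3 sites without counts set at their bound. That of all sites was -0.09. For the members it was 0.08 without WT eTreg replicate 2, 0.21 without WT eTreg replicate 1 and 0.18 without WT cTreg replicate 2. As 5.26% of tested members were higher, the share was near that of the series.

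At 111 kb the Pggt1b-deficient eTreg libraries, with 41.7 and 54.5 CPM, lay above the 23.4 and 22.9 CPM of WT eTreg, a log2 change of 1.04 ± 0.15 and 2.05-fold higher (adjusted p = 4.56e-06 by edgeR). At the site 24.5 kb before the widest, 9.87 and 9.48 CPM compared with 4.73 and 5.16 CPM, a change of 0.96 ± 0.31 (adjusted p = 0.0362 by edgeR). At 55.5 kb, 18.4 and 19.0 CPM compared with 11.8 and 10.2 CPM, a change of 0.77 ± 0.22 (adjusted p = 0.0194 by edgeR). The groups did not overlap at any of the 3, which were picked because they were called in this comparison. The last 2 calls were lost without either Pggt1b-deficient eTreg library and without WT eTreg replicate 2, and the former also without WT eTreg replicate 1 or WT cTreg replicate 2, with adjusted p of up to 0.183 and 0.12 over their alternatives.

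The widest site was the fourth. It had 356 and 332 CPM in Pggt1b-deficient eTreg and 248 and 245 CPM in WT eTreg libraries, a log2 change of 0.48 ± 0.07 (adjusted p = 1.43e-05 by edgeR). In cTreg cells the genotype difference there was 0.15 ± 0.07 and was not called (adjusted p = 0.326 by edgeR). All 4 Pggt1b-deficient libraries lay above all 4 WT libraries at this site. Its share of the counts of the window was 29.9 ± 0.44% in Pggt1b-deficient eTreg, 25.2 ± 0.47% in WT eTreg, 19.6 ± 0.57% in WT cTreg and 22.2 ± 0.67% in Pggt1b-deficient cTreg cells (SD, n = 2). Many sites of like level were also higher. Of 139 sites within 1.3-fold of its mean CPM, a limit set after values were seen, 38.1% were higher in Pggt1b-deficient eTreg cells and the median log2 fold change was 0.18. With loess offsets, which lessened this trend with level without removing it, the median of the 139 sites was 0.07. The Cblb site then stood at 0.36 (adjusted p = 9.17e-05 by edgeR). With every library thinned to the smallest total, its log2 change was 0.56 (adjusted p = 5.72e-06 by edgeR).

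Without the widest site, the summed level of the window was 1129.8 ± 25.9 CPM in WT cTreg, 733.9 ± 10.2 in WT eTreg, and, without Pggt1b, 1069.6 ± 1.37 CPM in cTreg and 804.7 ± 23.3 CPM in eTreg cells (SD, n = 2). The Pggt1b-deficient minus WT difference in eTreg cells was then 0.13 in place of 0.23, with the libraries still apart. The 1 lower member, chr16:52052057-52052198, had 1.67 and 1.36 CPM in WT eTreg libraries, which is at the floor of the Pggt1b-deficient eTreg group, so no fold is given. Its adjusted p was 0.0479 by edgeR. The count of lower members was 0 with DESeq2, loess offsets, limma-voom, thinning or only the libraries compared. Over all sites 8.07%, 11.1%, 6.09%, 9.56% and 8.73% were then called in either direction, in that order.

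The same comparison was made in cTreg cells. A single member was lower and 0 were higher (edgeR, adjusted p under 0.05), where 1.69% and 0.53% of all sites were called, 2.21% together. At an unadjusted p under 0.05 by edgeR, 2 members were higher and 5 lower, but the share over all sites was not taken there. DESeq2 called 0 members, and 1.15% of all sites. Limma-voom with group weights called 1 member higher and 1 lower, and 3.8% of all sites. The median log2 fold change was -0.11, against -0.03 over all sites. The lower member, chr16:52096049-52096185 at 64.3 kb, is the last site of the third run. It had 9.26 and 11.3 CPM in WT cTreg and 5.38 and 4.97 CPM in Pggt1b-deficient cTreg libraries, a log2 change of -0.99 ± 0.26 (adjusted p = 0.0315 by edgeR). It had 8.80 and 9.77 CPM in WT eTreg and 4.04 and 6.52 CPM in Pggt1b-deficient eTreg libraries. That eTreg difference of -0.86 ± 0.37 was not called (adjusted p = 0.135 by edgeR). All 4 Pggt1b-deficient libraries lay below all 4 WT libraries at this site. It was picked because it was called in cTreg cells, so cTreg libraries that lie apart add no support. The call was lost with DESeq2, after thinning, without any 1 of the 4 cTreg libraries and without WT eTreg replicate 2, with adjusted p from 0.00981 to 0.417 over its alternatives.

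At the 4 sites with the largest WT falls named by rule, no difference between genotypes was called in cTreg cells. These sites were named by a comparison that shares the WT cTreg libraries, and only 2.21% of all sites were called here. The lack of calls is thus no result about these sites. The log2 fold change in cTreg cells was -0.45 ± 0.22 at 124 kb, -0.00 ± 0.16 at the site 24.5 kb before the widest, 0.35 ± 0.27 at 61.9 kb and 0.05 ± 0.22 at 42.7 kb. At 111 kb it was 0.01 ± 0.10, also not called.

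The interaction, which sets the genotype difference in eTreg cells against that in cTreg cells, was called at 1 member as higher and at 0 as lower (edgeR, adjusted p under 0.05), where 0.957% and 0.555% of all sites were called, 1.51% together. At an unadjusted p under 0.05 by edgeR, 11 members were higher and 2 lower. The share over all sites was not taken at that limit, so these counts have no background. DESeq2 called 1 member higher and 0 lower, and 0.991% of all sites. Leaving out 1 library at a time, the summed interaction ran from 0.22 to 0.30. The member called with all 8 libraries was the site at 111 kb, with a log2 change of 1.03 ± 0.18 (adjusted p = 0.000758 by edgeR). The median over the members was 0.31, or 0.41 with 3 sites at their bound, against -0.04 over all sites. The interaction holds the WT subset difference with its sign turned, so it is no separate support for either. At the site 24.5 kb before the widest it was 0.97 ± 0.35 and at 124 kb 1.15 ± 0.51, neither past the threshold.

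In the second, the third and the fifth run WT eTreg was lowest and Pggt1b-deficient eTreg next. The order of the cTreg groups and the size of the differences were not shared. The second run, 2 sites before the widest, had 27.9 ± 3.17 CPM in WT cTreg, 5.87 ± 0.44 CPM in WT eTreg and, without Pggt1b, 29.6 ± 1.98 CPM in cTreg and 12.4 ± 1.71 CPM in eTreg cells (SD, n = 2). The fifth run had 380.7 ± 8.69, 209.9 ± 2.96, 372.5 ± 7.24 and 264.1 ± 6.42 CPM in that order. The third run changed least of these 3, with 909 ± 26.9, 695.8 ± 9.57, 897.7 ± 0.66 and 804.4 ± 31.3 CPM. In the seventh run, 2 sites at the far end, the Pggt1b-deficient eTreg libraries, with 22.0 and 21.3 CPM, lay close to the Pggt1b-deficient cTreg libraries, with 23.2 and 23.6 CPM, while WT eTreg had 14.8 and 15.7 CPM. In the sixth run, also of 2 sites, Pggt1b-deficient eTreg was lowest, with 26.5 and 27.3 CPM against 32.8 and 27.4 CPM in WT eTreg libraries. In the fourth run the order was turned, with WT eTreg highest at 7.14 and 8.96 CPM, and the Pggt1b-deficient eTreg libraries parted at 4.48 and 0.593 CPM.

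By Pearson correlation of log2 summed CPM over the 8 libraries, the windows most like that of Cblb were chr7:65780001-66010000 with 52 sites (r = 0.995), chr2:59110001-59340000 with 23 sites (r = 0.991) and chr15:9430001-9660000 with 35 sites (r = 0.990). The first had mean levels of 862 CPM in WT cTreg, 584 CPM in WT eTreg, 833 CPM in cTreg and 711 CPM in eTreg cells without Pggt1b. The correlations share all libraries and were ranked over 3139 windows, and no gene is assigned to these windows.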

How the data were processed

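Raw whole-number counts per site, as deposited by the authors, were used for 8 ATAC-seq libraries, 2 per group, with groups and replicate numbers from the sample titles. Per the submitters' processing notes, Trimmomatic 0.36, Picard 2.9.4, SAMtools, MACS2 2.1.1, bedtools and the build mm9 (NCBIM37) were used. The aligner, the shift of read ends, the peak threshold, any pooling for peak calling and the counting of reads or fragments have no mention in the sources used here (not given in them). Whether starts count from 0 or 1 is not stated.

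From these counts, edgeR 4.0.16 in R 4.3.3 was run on the whole table: filterByExpr (75352 sites), TMM scaling, a mean per group over 8 libraries and two-sided quasi-likelihood F tests with Benjamini-Hochberg adjustment. The threshold for a call was an adjusted p of 0.05. SE was computed as |log2 fold change| divided by the root of F. As 66.1% to 77.4% of counts from 1 to 10 were even, many counts come in pairs, and the floor for a group without counts was 6 counts over the group. The floor covers counting error only. The procedure was tested on simulated counts. Alternatives used DESeq2 1.42.0 and limma 3.58.1, among others.

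Sites named are the 3 of highest mean CPM, the widest, and for each contrast at most 4 called sites per direction with a mean count of at least 20 and the largest fold change. The members, the window and the lists were chosen with earlier results of these data known. Gene lists of the pathway and of cell types were not run, as the gene table used here belongs to another build.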

Additional observations from a re-analysis of the deposited data

Results flagged for a closer look

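In the interaction test 1.51% of all sites and 1.32% of tested members were called (edgeR, adjusted p under 0.05). The 1 member, chr16:52142902-52143642, was flagged because the genotype difference differed between subsets there by that test. Its interaction log2 fold change was 1.03 ± 0.18 (edgeR adjusted p = 0.000758, all 8 libraries, range over alternatives 0.000163 to 0.0529). Pggt1b-deficient minus WT was 0.01 ± 0.10 in cTreg and 1.04 ± 0.15 in eTreg cells, with both Pggt1b-deficient eTreg libraries above both WT eTreg libraries. With every library thinned to the smallest total, the interaction was 1.05 with an edgeR adjusted p of 0.0529, as large in size but not past the threshold. The thinned run called 1 other member, as higher, and 0.468% of all sites. Groups of 2 were too small to look for single libraries that lie apart.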

How the results depend on the processing

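Of 25 calls at named sites, 14 stayed past the threshold under every alternative run and 11 were lost under at least 1. The 1 call that turned was chr16:52036557-52036657 for Pggt1b-deficient eTreg against cTreg, at -0.27 without Pggt1b-deficient eTreg replicate 1 and 2.49 without replicate 2. With every library thinned to the smallest total, calls in the window numbered 15 for the WT subsets and 0 for the genotypes in cTreg. Over all sites 14.6% and 0.339% were then called. For the genotypes in cTreg DESeq2 called 0 members and 1.15% of all sites. With only the libraries compared, 2 members were called for the genotypes in eTreg and 4 for the Pggt1b-deficient subsets. The shares over all sites were 8.73% and 5.85%. Limma-voom with group weights called 2 for the genotypes in cTreg, 2 in eTreg, 3 for the Pggt1b-deficient subsets and 2 for the interaction. Over all sites it called 3.8%, 6.09%, 4.11% and 1.08% in that order. Without both Pggt1b-deficient eTreg libraries, 2 were called for the genotypes in cTreg. No share over all sites is set beside that count, so it is no result about the locus. The cause of these shifts was not tested, except that thinning lowers the counts.

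Leaving out 1 library at a time gave 19 to 45 calls for the WT subsets, 0 to 2 for the genotypes in cTreg, 2 to 7 in eTreg, 6 to 13 for the Pggt1b-deficient subsets and 1 to 2 for the interaction. Each of these runs leaves 1 library in a group. For every comparison the share of all sites called also moved with the library left out. The ranges of calls are therefore no result about the locus. The summed interaction ran from 0.22 to 0.30 over these runs.

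With raw totals in place of TMM the summed log2 difference was -0.57 for the WT subsets, 0.27 for the genotypes in eTreg and 0.30 for the interaction. Without the strongest site it was -0.62 for the WT subsets, -0.079 for the genotypes in cTreg cells, 0.13 in eTreg, -0.41 for the Pggt1b-deficient subsets and 0.21 for the interaction.

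Replicate numbers are shared between groups, but deviations of same-numbered libraries correlated at -0.02 to 0.06 across sites, so the numbers were not taken as pairs. With a replicate block, 35, 1, 4, 10 and 1 members were called for the WT subsets, the genotypes in cTreg and in eTreg, the Pggt1b-deficient subsets and the interaction. Over all sites 26.8%, 2.08%, 10.3%, 8.42% and 1.38% were called in that order.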
